A study of Mus musculus with 20 samples.

Results

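The first 2 days of adipogenic differentiation were followed in mouse 3T3-L1 cells that carried a short hairpin RNA against Tcf7l2. The 4 libraries of this arm, 2 of day 2 and 2 of day 0, were taken by their labels from 20 libraries in 10 groups. The day 2 libraries came from Tcf7l2-hairpin cells after 2 days of differentiation, and the day 0 libraries from Tcf7l2-hairpin cells at the start. They were set beside 2 day 2 and 2 day 0 libraries of cells with a scrambled hairpin, and the remaining libraries belong to days 4, 6 and 8. 3T3-L1 is a fibroblast-like preadipocyte line from mouse embryo, cultured here in low glucose medium with fetal bovine serum. All groups carried a lentiviral SMARTvector hairpin delivered at very low passage, were selected with puromycin as a mixed population and differentiated, per the labels, without routine use of a thiazolidinedione. The labels list no other agent of the differentiation medium. Each arm rests on 1 hairpin construct, so hairpin and loss of Tcf7l2 cannot be told apart. Whether both libraries of a group were grown as separate cultures is not stated in the labels. The p-values therefore reflect the spread between these samples alone, and that spread may be technical.

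Differentiation of these cells is classically started in confluent, arrested cultures with insulin, a glucocorticoid and a compound that raises cAMP. Hormone-responsive genes and the early factors Cebpb and Cebpd respond first, the cells re-enter the cell cycle in what is called clonal expansion, and Pparg and Cebpa then switch on the genes of the lipid-storing adipocyte. Tcf7l2 is a DNA-binding partner of beta-catenin, and Wnt signals through beta-catenin are known to hold preadipocytes undifferentiated. The comparison of day 2 with day 0 asks which of these steps the knockdown cells went through.

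The knockdown libraries held 28664392 and 29086511 reads on day 2, against 25099597 and 29199306 reads on day 0, and 15915 of 33581 genes were abundant enough to test. Levels are given in RPM, the read number relative to library size after joint scaling of the libraries, without a correction for gene length, so levels of different genes are not compared. Tcf7l2 was at 16.2 and 16.9 RPM on day 2, against 13.3 and 22.5 RPM on day 0 in knockdown cells. Scrambled cells had 40.9 and 43.8 RPM of it on day 2 and 40.2 and 58.3 RPM on day 0, above the highest knockdown library in each case. Between the days Tcf7l2 differed by -0.07 ± 0.28 (log2, SE) in the knockdown arm, which did not pass the test (adjusted p = 0.88). Of 9 fibroblast and preadipocyte markers all 9 were tested, with a summed level of 23680 and 20920 RPM on day 2, against 26720 and 37480 RPM on day 0. The 7 adipocyte markers summed to 43.8 and 47.95 RPM on day 2, against 2.29 and 0.857 RPM on day 0. Markers of endothelial, epithelial and skeletal myoblast cells were at or near 0. No endothelial or skeletal myoblast marker passed the filter, the sum of the 5 epithelial markers stayed below 1 RPM in every knockdown library, and the leukocyte markers Ptprc and Emr1 had 0 or 1 read in any of them. The leukocyte list as a whole, of which 5 members were tested, summed to 27.85 and 29.9 RPM on day 2, against 34.25 and 28.2 RPM on day 0, mostly from Itgam and Cd14. The library kit does not mark strand, and exons of Prg4, Stat5a, Srebf1, Bop1, Cdc45, Lipe, Dio2, Irs2, Sfrp2, Tef, Tgfb3, Dhx58, Ccnd2, Cebpa and Cdkn1a overlap a gene on the other strand, so their reads may include those of a neighbour. In bulk RNA, fewer cells of a kind and less RNA per cell cannot be told apart.

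Over the first 2 days 1470 genes were called higher and 1766 lower in the knockdown arm, which is 9.24% and 11.1% of the genes tested and 20.3% together. The counts of called list members below are to be read beside these shares. The call rests on limma voom with the 4 groups of days 2 and 0 in a common fit, an adjusted p under 0.05 (Benjamini-Hochberg over all genes tested) and 4 residual degrees of freedom. Among the called genes 782 rose and 935 fell by at least 2-fold. Both day 2 libraries lay above both day 0 libraries in 29.7% of all genes tested and below them in 30.8%. The balance of directions depended on the scaling of the libraries. With total reads in place of the median of ratios, 1152 genes were called higher and 2374 lower, and the median change over all genes moved to -0.11 (log2), against 0.01 in the fit reported here. The number of calls also fell when a library of the arm was left out. Such a fit has 1 library in a group and 3 residual degrees of freedom. Fewer calls are therefore likely whichever library is left out, and the loss alone does not mark a library as different. The 3236 calls became 1503 without day 2 library 1, 1477 without day 2 library 2, 2074 without day 0 library 2 and 2561 without day 0 library 1. Of the 129 tested genes chosen by the naming rule, none of those called in the fit reported changed direction under the alternatives run. The direction of the uncalled ones, such as Tcf7l2, was not followed.

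Among called genes whose mean level in the arm was above the median of all genes tested and whose days did not overlap, most of the 12 largest increases were in genes with few or no reads on day 0. Retnla, which encodes a small secreted protein of the resistin family, had 72.7 and 104 RPM on day 2, against 0 reads in both day 0 libraries. Set against 3 reads over the day 0 libraries together, its level was at least 1666-fold higher on day 2. Fam107a, an actin-associated gene known to respond to glucocorticoids and stress, had 2436 reads over the day 2 libraries and 1 read over the day 0 libraries, a ratio of 2477 (exact 95% counting interval 444 to 97868). Lcn2, a siderophore-binding lipocalin, had 171 and 223 RPM on day 2, against 0.306 and 0.165 RPM on day 0, a change of 9.67 ± 0.82 (log2, SE, adjusted p = 0.000405).

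Prg4 encodes lubricin, a lubricating proteoglycan of joints, and had 178 and 228 RPM on day 2, against 0.268 and 0.428 RPM on day 0 (log2 change 9.13 ± 0.53, adjusted p = 0.000138). Cxcl13, a chemokine that attracts B cells, had 103 and 79.1 RPM on day 2, against 0.344 and 0.494 RPM on day 0 (log2 change 7.70 ± 0.67). Its scrambled libraries had 44.1 and 24.7 RPM on day 2 and no read on day 0. Zbtb16, a zinc finger repressor, had 74.2 and 49.7 RPM on day 2, against 0.688 and 0.264 RPM on day 0 (log2 change 7.12 ± 0.80, adjusted p = 0.0011). Orm3, an acute-phase plasma protein with near-identical relatives that may share its reads, and Sema3g, a secreted semaphorin, rose by 6.42 ± 0.77 and 6.21 ± 0.34 (log2, SE). Ctla2a, an inhibitor of cathepsin-type proteases, rose by 4.19 ± 0.32, and its exons overlap those of an unnamed gene. Glul, which makes glutamine, had 584 and 517 RPM on day 2, against 26.1 and 26.8 RPM on day 0, and the 2 libraries of each day were closely alike. Its log2 change of 4.38 ± 0.12 had the smallest adjusted p of the named genes (9.15e-06). The pseudogene Glns-ps1 rose by 4.30 ± 0.22 with the same pattern, but it is a near copy of Glul and reads may have been split between them. Fkbp5, a co-chaperone of the glucocorticoid receptor, was also among these 12, with 976 and 899.6 RPM on day 2, against 58.0 and 51.2 RPM on day 0.

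By the same limits, the 12 largest decreases included genes of adhesion, iron export and matrix proteolysis, and genes induced by interferon. Cdsn, an adhesion protein best known from the outer skin, had 8.39 and 16.6 RPM on day 2, against 223 and 224 RPM on day 0 (log2 change -4.24 ± 0.27, adjusted p = 0.000152). In scrambled cells Cdsn had 2.36 and 1.88 RPM on day 2 and 124 and 137 RPM on day 0. Slc40a1 encodes ferroportin, the iron exporter, and had 4.3 and 4.66 RPM on day 2, against 45.8 and 56.8 RPM on day 0 (log2 change -3.50 ± 0.25). Enpp5, of the ectonucleotide pyrophosphatase family, fell by 3.46 on the log2 scale (SE 0.17). Pltp, which transfers phospholipids between lipoproteins, had 6.73 and 8.85 RPM on day 2, against 68.1 and 101 RPM on day 0. Its exons overlap those of Ctsa on the other strand, and the library kit does not mark strand, so their reads cannot be told apart. Timp3, a matrix-bound inhibitor of metalloproteases, had 3.4 and 5.48 RPM on day 2, against 44.0 and 42.5 RPM on day 0 (log2 change -3.32 ± 0.22, adjusted p = 0.000152). The gelatinase Mmp9 had 7.88 and 10.0 RPM on day 2, against 62.5 and 72.8 RPM on day 0.

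Uap1l1, a relative of the enzyme that makes UDP-N-acetylglucosamine, had 17.8 and 29.6 RPM on day 2, against 179 and 187 RPM on day 0. Cryab, a small heat-shock protein whose exons overlap those of Hspb2, fell by 2.96 on the log2 scale (SE 0.28). The remaining named decreases were interferon-induced genes. Ifit3 had 8.21 and 13.9 RPM on day 2, against 58.5 and 294 RPM on day 0, and Tgtp1 and Tgtp2, near-identical GTPase genes whose reads may be shared, changed by -3.18 ± 0.66 and -3.22 ± 0.66 (log2, SE). All 3 had a much higher level in day 0 library 2 than in day 0 library 1, and all 3 lost their call without day 2 library 1 or without day 2 library 2. A predicted gene without a name also belonged to these 12.

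**Figure D1:**
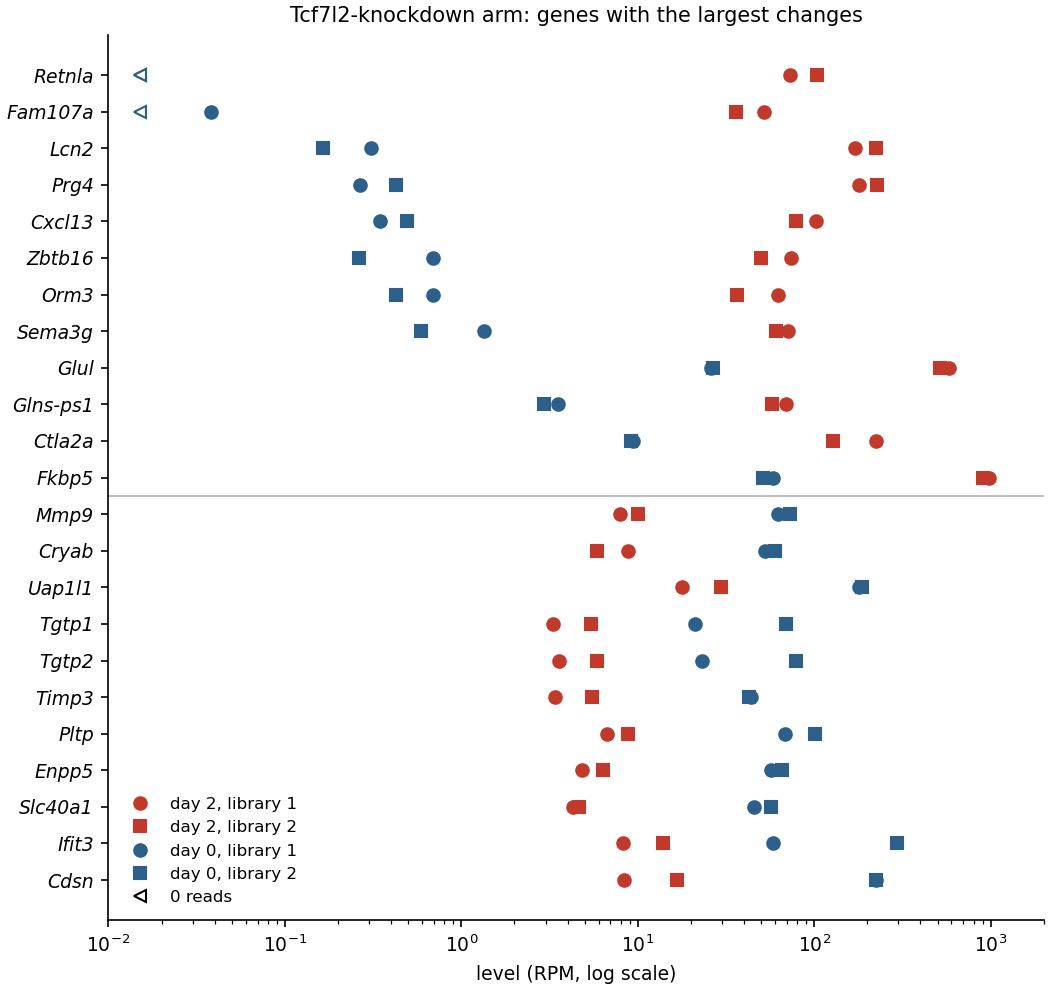
Level in RPM (log scale) of the 12 genes with the largest increase and of the 11 named genes with the largest decrease among called genes above the median level with non-overlapping days, in each of the 4 libraries of the Tcf7l2-knockdown arm. Day 2 is red and day 0 blue, circles are library 1 and squares library 2, and open triangles stand for 0 reads. Day 0 library 2 stands apart from day 0 library 1 in Ifit3, Tgtp1 and Tgtp2.

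Genes known to respond to glucocorticoids rose in nearly all cases. The lists here and below were chosen with earlier results of these data known, so their medians are a description only. The glucocorticoid list holds Lcn2, Zbtb16, Glul and Fkbp5, named above among the largest increases. Of 19 genes of that list 18 were tested, 16 rose and 1 fell, and the median change of the tested members was 2.51 (log2), against 0.01 over all genes. Tsc22d3, which encodes the glucocorticoid-induced leucine zipper protein, had 775 and 618 RPM on day 2, against 51.5 and 48.7 RPM on day 0 (log2 change 3.79 ± 0.15, adjusted p = 3.96e-05). Errfi1, a brake on epidermal growth factor receptor signalling, had 636 and 480 RPM on day 2, against 41.2 and 30.2 RPM on day 0 (log2 change 3.97 ± 0.21). Dusp1, a phosphatase of MAP kinases, rose by 2.83 ± 0.43, and Angptl4, an inhibitor of lipoprotein lipase, by 2.46 ± 0.24 (log2, SE). The metal-binding metallothioneins Mt2 and Mt1 rose by 1.65 ± 0.16 and 0.82 ± 0.19. Hsd11b1, which regenerates active glucocorticoid inside cells, had 11.6 and 29.0 RPM on day 2, against 1.57 and 0.791 RPM on day 0. The glucocorticoid receptor gene Nr3c1 itself fell, to 117 and 109 RPM on day 2, against 201 and 209 RPM on day 0 (log2 change -0.86 ± 0.12, adjusted p = 0.00223). Sgk1, a kinase gene of the list, was at 78.0 and 80.3 RPM on day 2 and 113 and 85.8 RPM on day 0 and did not pass. Between 13 and 16 members were called higher when any 1 library was left out. In the scrambled arm the median change of the same members was 2.53.

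Most genes known to respond to cAMP rose too. Of 16 genes 14 were in the tables and 13 were tested, of which 9 rose and 1 fell, with a median change of 1.81 (log2). Nfil3, a leucine zipper repressor, had 95.6 and 100.5 RPM on day 2, against 17.1 and 14.1 RPM on day 0 (log2 change 2.66 ± 0.15, adjusted p = 0.000138). Pde4b and Pde3b, phosphodiesterases that break down cAMP, rose by 3.07 ± 0.25 and 1.81 ± 0.19 (log2, SE). The orphan nuclear receptor Nr4a1 had 147 and 139.5 RPM on day 2, against 33.9 and 14.1 RPM on day 0, while its relative Nr4a2 had 3.94 and 4.41 RPM on day 2 and 5.31 and 5.08 RPM on day 0 and did not pass. Rgs2, which dampens G protein signals, had 447 and 418 RPM on day 2, against 81.1 and 28.2 RPM on day 0. Dio2, the deiodinase that activates thyroid hormone, had 17.3 and 10.96 RPM on day 2, against 0.0382 and 0.165 RPM on day 0 (log2 change 7.05 ± 0.73). In scrambled cells Dio2 reached 1.66 and 1.57 RPM on day 2. Ppargc1a, a coactivator of mitochondrial genes, was the member that fell, with 2.42 and 3.01 RPM on day 2, against 5.35 and 7.28 RPM on day 0 (log2 change -1.21 ± 0.28, adjusted p = 0.0207). That call was lost without day 0 library 2 or without either day 2 library.

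The early transcription factors of adipogenesis were higher on day 2 in most cases. Of 8 tested, 5 rose and 1 fell, with a median change of 0.85 (log2). Cebpd had 165 and 156 RPM on day 2, against 32.2 and 23.7 RPM on day 0 (log2 change 2.54 ± 0.20, adjusted p = 0.000293). Its exons overlap those of Spidr on the other strand, so part of these reads may belong to that gene. Klf5, a zinc finger factor that acts upstream of Pparg, had 25.6 and 31.2 RPM on day 2, against 4.01 and 3.29 RPM on day 0 (log2 change 2.96 ± 0.24). Cebpb had 159 and 457 RPM on day 2, against 62.8 and 102 RPM on day 0. Both day 2 libraries were above both day 0 libraries, while the day 2 libraries differed widely from each other, and the change of 1.75 ± 0.59 did not pass (adjusted p = 0.0732). Scrambled cells showed the same gap in Cebpb, with 151 and 430.1 RPM on day 2 and 60.1 and 95.6 RPM on day 0. Stat5a rose by 1.05 ± 0.15, Stat5b by 0.46 ± 0.12 and the AP-1 factor Fosl2 by 0.65 ± 0.16 (log2, SE). Klf4 fell, with 23.9 and 38.7 RPM on day 2, against 66.7 and 64.3 RPM on day 0 (log2 change -1.11 ± 0.23), a call lost without day 2 library 1. The count of 5 became 3 without any of day 0 library 1, day 0 library 2 and day 2 library 2.

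Of the later factors, none fell. Of 10 genes 9 were tested and 5 rose, with a median change of 1.31 (log2). Pparg, the nuclear receptor that commits cells to the adipocyte fate, had 57.7 and 70.7 RPM on day 2, against 20.8 and 16.5 RPM on day 0 (log2 change 1.79 ± 0.19, adjusted p = 0.000919). Cebpa, its partner, had 71.4 and 79.2 RPM on day 2, against 29.4 and 20.9 RPM on day 0 (log2 change 1.60 ± 0.25, adjusted p = 0.00394). Rxra, the dimer partner of Pparg, and Srebf1, which drives lipogenic genes, rose by 1.31 ± 0.15 and 1.48 ± 0.21 (log2, SE). Klf15 was called higher at under 1 RPM in every library. Scrambled cells had more Pparg and Cebpa on both days, with 89.7 and 121 RPM of Pparg on day 2 and 31.3 and 30.0 RPM on day 0. The log2 changes in scrambled cells were 1.76 for Pparg and 1.81 for Cebpa, and the difference between the arms was 0.03 and -0.20 (log2, unadjusted p = 0.914 and 0.577). With 1 spread per gene shared over all 20 libraries, Pparg and Cebpa were no longer called (2 of 9 called higher). The median change of the list was 1.33 in that fit. Its spread takes in later stages and the 2 scrambled libraries of day 8, which lie far apart. The fit reported left the later days out for these reasons. Their part in the lost calls, here and in the lists below, was not tested.

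Markers of the undifferentiated state and inhibitors of adipogenesis were split, with more decreases than increases. Of 19 tested, 7 fell and 2 rose, with a median change of -0.62 (log2). Dlk1, a membrane protein that blocks adipogenesis, had 689 and 913 RPM on day 2, against 2759 and 2634 RPM on day 0 (log2 change -1.76 ± 0.18, adjusted p = 0.000691). Scrambled cells had 787 and 846 RPM of Dlk1 on day 2 and 4462 and 4533 RPM on day 0, so the levels of the arms lay closer on day 2. Gata2, which represses Pparg, had 2.42 and 2.44 RPM on day 2, against 12.2 and 20.5 RPM on day 0 (log2 change -2.71 ± 0.37). The mural cell receptor Pdgfrb had 139 and 123 RPM on day 2, against 342 and 349.6 RPM on day 0, while the related receptor Pdgfra had 599 and 444 RPM on day 2, against 281 and 276 RPM on day 0. Ly6a, which encodes the progenitor antigen Sca-1, rose by 1.91 ± 0.20 (log2, SE, adjusted p = 0.000815). Klf3, Gata3, Ddit3 and Wnt10a also fell, by 0.53, 1.20, 1.52 and 1.80 on the log2 scale, the last at under 1 RPM in every library. The 7 decreases became 4 without day 0 library 2, without day 2 library 1 or without day 2 library 2.

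Genes of the mature adipocyte had begun to rise by day 2, several of them from 1 or a few reads. Of 22 genes 19 were tested, 14 rose and none fell, with a median change of 2.48 (log2) in knockdown cells and 3.61 in scrambled cells. Fabp4, a fatty acid carrier and classic marker, had 13.3 and 14.5 RPM on day 2, against 1.68 and 0.692 RPM on day 0 (log2 change 3.70 ± 0.59, adjusted p = 0.00449). Cidec, a lipid droplet protein, had 886 reads over the day 2 libraries and 3 over the day 0 libraries, a ratio of 300.3 (exact 95% counting interval 102 to 1459). Retn, the adipocyte hormone resistin, had 2.89 and 2.61 RPM on day 2, against 1 read in all on day 0, a ratio of 156 (interval 27.5 to 6184). Plin1, which coats lipid droplets, had 8.93 and 8.88 RPM on day 2, against 0.115 and 0.0659 RPM on day 0. Adipoq, which encodes adiponectin, had 4.3 and 1.97 RPM on day 2, against 0.229 and 0.0659 RPM on day 0 (log2 change 4.38 ± 1.04, adjusted p = 0.0221). Lep and Pck1 were at or near 0 reads throughout.

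Other members were already present on day 0. Agt, which encodes angiotensinogen, had 402 and 443 RPM on day 2, against 45.9 and 22.3 RPM on day 0 (log2 change 3.73 ± 0.32). Pnpla2, the adipose triglyceride lipase, had 104 and 100.3 RPM on day 2, against 17.2 and 22.4 RPM on day 0 (log2 change 2.37 ± 0.17, adjusted p = 0.000208). Acsl1, which activates fatty acids, had 143 and 146 RPM on day 2, against 27.8 and 24.4 RPM on day 0, and Lipe, the hormone-sensitive lipase, rose by 2.35 ± 0.27 (log2, SE). Lpl, which frees fatty acids from lipoproteins, had 965 and 755 RPM on day 2, against 401 and 297 RPM on day 0. Plin2, a lipid droplet coat of many cell types, was at 93.2 and 109 RPM on day 2 and 173 and 125 RPM on day 0 and did not pass (adjusted p = 0.0843). Scrambled cells reached 236 and 307 RPM of Pnpla2 and 389.6 and 689 RPM of Acsl1 on day 2. On day 0 they had 12.9 and 14.3 RPM of Pnpla2 and 31.5 and 20.4 RPM of Acsl1. The difference between the arms was -1.92 for Pnpla2 and -1.89 for Acsl1 (log2, unadjusted p = 7.83e-05 and 0.00144), and neither passed over all genes (adjusted p = 0.311 and 0.736). The 14 increases became 4, without Fabp4, when the spread was shared over all 20 libraries, and 10 to 12 without 1 library of the knockdown arm.

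**Figure D2:**
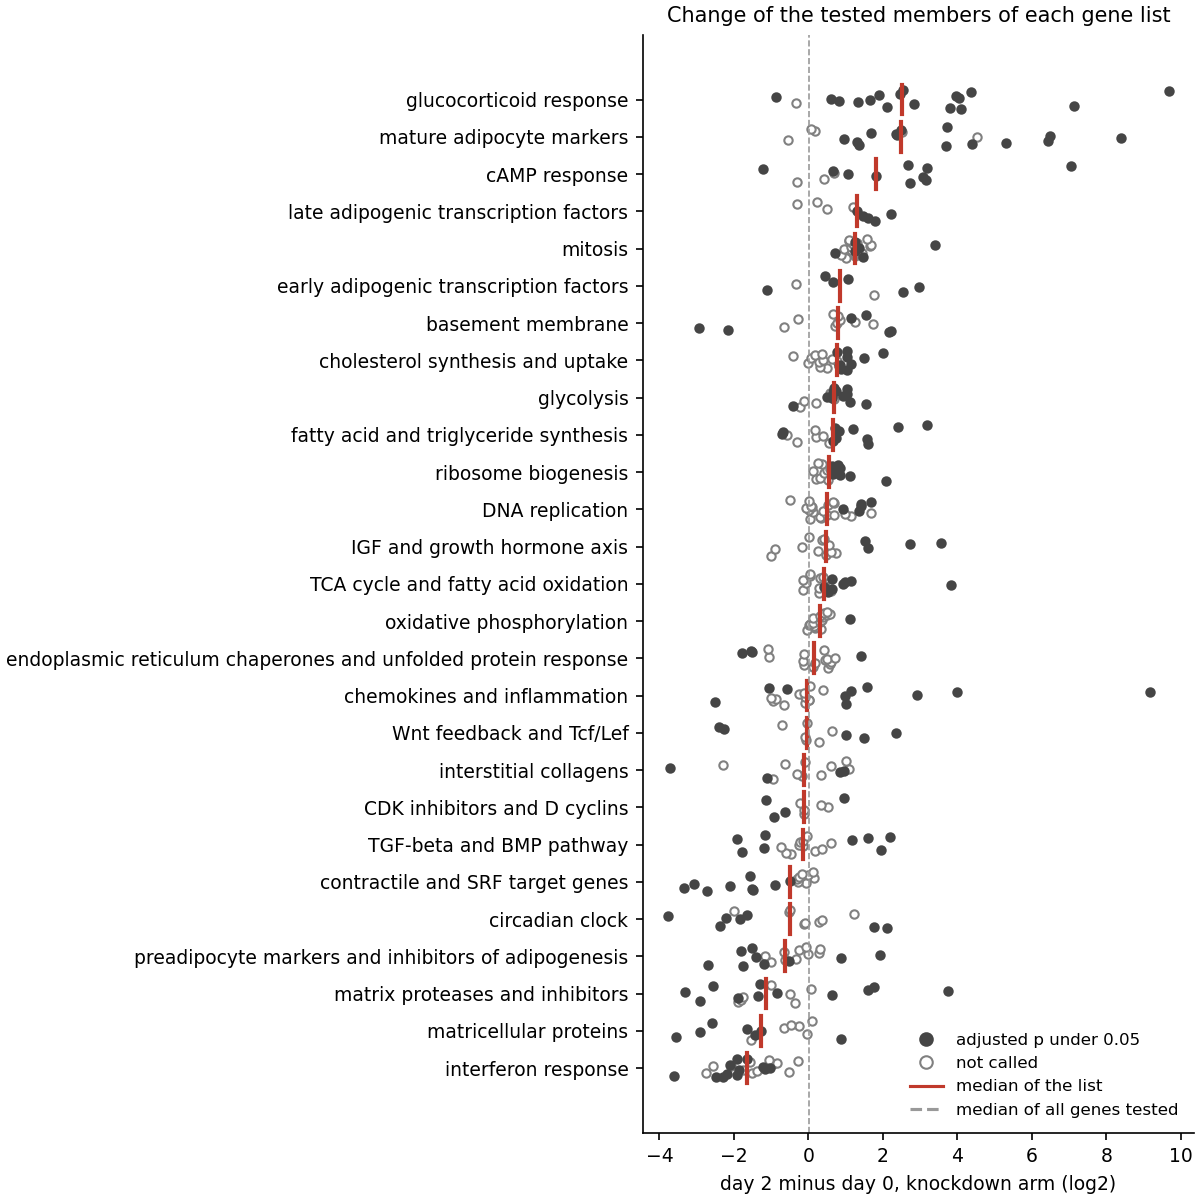
Change from day 0 to day 2 in the knockdown arm (day 2 minus day 0, log2) of the tested members of 27 gene lists, ordered by median. Each point is a gene, filled where its adjusted p is under 0.05, red bars are list medians and the dashed line is the median of all genes tested. The glucocorticoid, mature adipocyte and cAMP lists have the highest medians (2.51, 2.48 and 1.81) and the interferon list the lowest (-1.64). The lists were chosen with earlier results of these data known.

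Cell cycle genes were higher on day 2, but most did not pass, and the libraries numbered 2 were above those numbered 1 on both days. Of 22 mitosis genes, all tested, 6 rose and none fell, and all 22 had both day 2 libraries above both day 0 libraries. Over all genes tested, 9.24% were called higher and 29.7% had both day 2 libraries above both day 0 libraries. The median change of the mitosis genes was 1.25 (log2). The list summed to 617 and 1065 RPM on day 2, against 152 and 298 RPM on day 0. Top2a, the topoisomerase that untangles chromosomes, had 278 and 520.4 RPM on day 2, against 23.7 and 53.0 RPM on day 0 (log2 change 3.41 ± 0.55, adjusted p = 0.00484). Scrambled cells had 219.7 and 427 RPM on day 2 and 22.5 and 50.9 RPM on day 0, again with library 2 above library 1. The spindle motor Kif20a had 22.9 and 39.3 RPM on day 2, against 8.79 and 15.0 RPM on day 0 (log2 change 1.37 ± 0.33), but it overlaps Cdc23 over 977 exon bases. Ccnb1, the mitotic cyclin, and Tpx2, a spindle assembly factor, rose by 1.46 ± 0.41 and 1.26 ± 0.35 (log2, SE, adjusted p = 0.0406 and 0.0401). Mki67, the proliferation antigen, had 54.7 and 77.5 RPM on day 2 and 11.01 and 36.4 RPM on day 0 and did not pass (adjusted p = 0.0771).

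The 6 mitosis calls became 1 without day 0 library 1 or without day 2 library 2, 3 without either scrambled day 2 library, 10 without either scrambled day 0 library, and 2 with all 20 libraries. Top2a kept its call in each of these. Kif20a, Tpx2 and Ccnb1 lost theirs without day 0 library 1, without day 2 library 2 or with all 20 libraries. All 22 genes were higher in library 2 than in library 1 on both days of the knockdown arm. With the replicate number as a block in the fit, all 22 were called higher. Median ratios of library 2 to library 1 were 1.66 on day 2 and 1.97 on day 0, against 1.01 and 0.997 over all genes tested. What the numbers 1 and 2 stand for is not given.

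Promoters are shown for the 2 called mitosis genes with the largest change among those whose promoter holds both motifs named next, since the list moved together between libraries as well as between days. They run from 250 bases before the start to 50 bases after it, and come from RefSeq on GRCm38.p6, which held 9327 of the genes tested (58.6%). Capitals mark the NF-Y box CCAAT and the cell cycle homology region TTTGAA on either strand. Those of Top2a, at chr11:99024140-99024439 on the minus strand, and of Aurka, a mitotic kinase at chr2:172370521-172370820 on the minus strand, read as follows.
Top2a: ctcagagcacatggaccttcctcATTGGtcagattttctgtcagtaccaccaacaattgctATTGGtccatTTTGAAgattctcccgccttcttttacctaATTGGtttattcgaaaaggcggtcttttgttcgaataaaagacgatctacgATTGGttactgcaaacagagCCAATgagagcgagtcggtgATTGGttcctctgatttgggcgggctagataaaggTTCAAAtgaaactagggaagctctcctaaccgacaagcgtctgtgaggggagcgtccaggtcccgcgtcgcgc
Aurka: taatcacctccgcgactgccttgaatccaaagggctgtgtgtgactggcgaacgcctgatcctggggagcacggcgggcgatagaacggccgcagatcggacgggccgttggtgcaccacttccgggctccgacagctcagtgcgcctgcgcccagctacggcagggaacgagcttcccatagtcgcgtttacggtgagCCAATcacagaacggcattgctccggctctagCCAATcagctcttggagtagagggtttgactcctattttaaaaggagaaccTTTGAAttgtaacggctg
Aurka had 9.08 and 14.0 RPM on day 2, against 3.63 and 5.9 RPM on day 0 (log2 change 1.26 ± 0.38, adjusted p = 0.0497). CCAAT was in 15 of 18 promoters of mitosis genes (83.3%) and in 39.5% of all promoters matched, and TTTGAA in 12 of 18 (66.7%) and in 12% of all. CCAAT was also in 15 of 18 promoters of endoplasmic reticulum chaperone and stress genes (83.3%) and 10 of 13 of clock genes (76.9%). Neither of these lists rose as a group, so CCAAT was not particular to lists that rose. Its lowest share was 0 of 6, in the early adipogenic factors. A match is a run of letters and not a measured binding site.

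**Figure D3:**
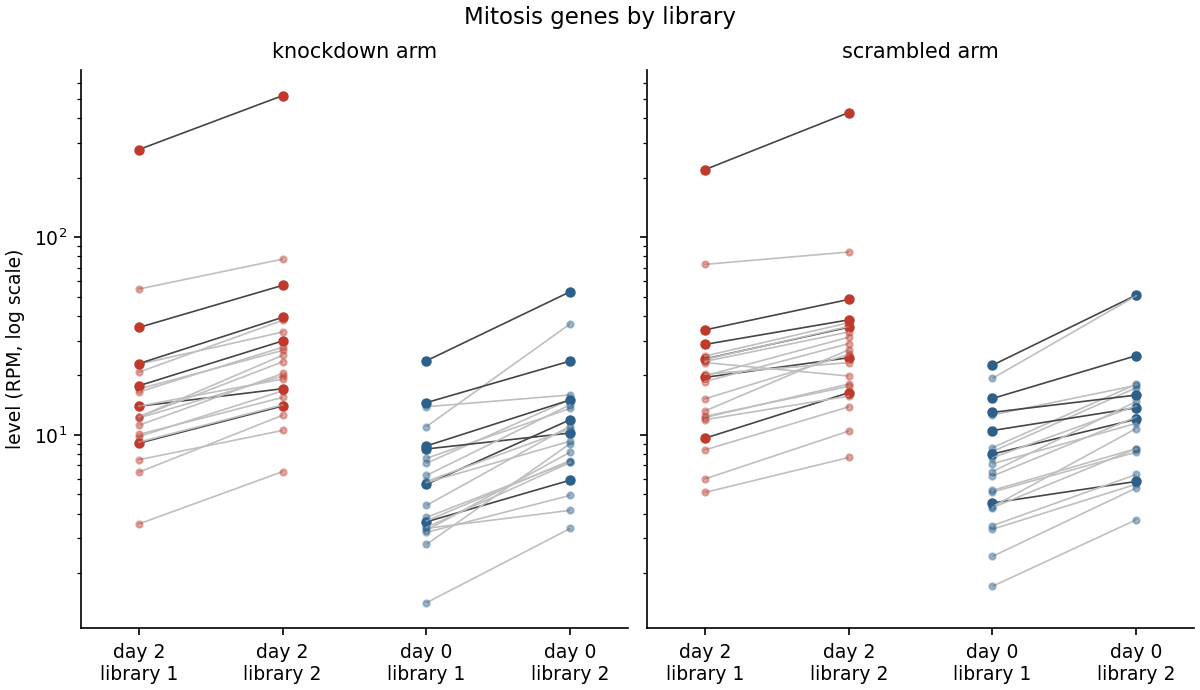
Level in RPM (log scale) of the 22 mitosis genes in each library, with the knockdown arm on the left and the scrambled arm on the right. Lines join the 2 libraries of a day, day 2 is red and day 0 blue, and dark lines mark the 6 genes called in the knockdown arm. In the knockdown arm each line rises to library 2 and each gene lies higher on day 2 than on day 0.

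Among DNA replication genes most did not pass. All 24 were tested, 5 rose and none fell, against 9.24% and 11.1% of all genes tested. The median change of the list was 0.51 (log2). Pcna, the sliding clamp of DNA polymerase, had 106 and 125 RPM on day 2, against 58.7 and 61.8 RPM on day 0 (log2 change 0.93 ± 0.17, adjusted p = 0.00691). Cdc45 of the replicative helicase, Rrm2 of ribonucleotide reductase and the S phase cyclin Ccne2 rose by 1.35 ± 0.32, 1.41 ± 0.37 and 1.68 ± 0.47 (log2, SE), and thymidine kinase Tk1 by 1.43 ± 0.42. Ccne2 shares exon bases with Ints8 on the other strand. The helicase subunit Mcm2 stood at 41.4 and 59.5 RPM on day 2 and 41.4 and 56.3 RPM on day 0, with overlapping libraries, and the transcription factor E2f1 at 37.0 and 39.0 RPM on day 2 and 39.3 and 35.9 RPM on day 0. Mcm5 had 21.2 and 42.8 RPM on day 2 and 9.25 and 19.4 RPM on day 0, where library 2 was above library 1 on both days. The 5 calls became 1 without day 0 library 1, 2 without day 0 library 2, 3 without day 2 library 1 and 0 without day 2 library 2. An E2F letter run, TTCCCGC or TTGGCGC on either strand, was in 10 of 19 promoters of these genes (52.6%) and in 12.3% of all. It was also in 4 of 6 promoters of the early adipogenic factors (66.7%). Library 2 exceeded library 1 in all 24 genes on day 2 and in 22 of 24 on day 0. With the replicate number as a block in the fit, 14 were called higher and 1 lower.

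Among CDK inhibitors and D cyclins, 1 of 9 tested rose and 3 fell, against 9.24% and 11.1% of all genes tested. The median change of the list was -0.13 (log2). The D cyclins moved in opposite directions. Ccnd3 had 234 and 252 RPM on day 2, against 133 and 116 RPM on day 0 (log2 change 0.96 ± 0.14), though it shares exon bases with Bysl, and Ccnd2 had 328 and 330.3 RPM on day 2, against 638 and 821 RPM on day 0 (log2 change -1.13 ± 0.15). The CDK inhibitors Cdkn1a and Cdkn2a fell by 0.93 and 0.62 on the log2 scale (adjusted p = 0.00552 and 0.0123), and the call of Cdkn2a was lost without day 2 library 2. Cdkn1b, the inhibitor that holds arrested cells in G1, was at 114 and 94.7 RPM on day 2 and 110.1 and 117 RPM on day 0 and did not pass.

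Ribosome biogenesis genes rose or did not pass, and none fell. Of 16 tested, 7 rose, with a median change of 0.55 (log2) in knockdown cells and 1.26 in scrambled cells. Myc, the transcription factor that drives these genes, had 71.7 and 89.8 RPM on day 2, against 16.6 and 21.2 RPM on day 0 (log2 change 2.09 ± 0.18, adjusted p = 0.000412). Scrambled cells had 93.4 and 111 RPM of Myc on day 2 and 9.86 and 11.1 RPM on day 0, below the knockdown libraries on day 0 and above them on day 2. Nop56 and Nop58, which modify ribosomal RNA, rose by 1.12 ± 0.18 and 0.86 ± 0.16 (log2, SE). Bop1, which matures the large subunit, had 68.2 and 66.9 RPM on day 2, against 43.2 and 42.9 RPM on day 0. Nolc1, Dkc1 and Rrs1 rose by 0.85, 0.63 and 0.80. All 16 members had a smaller change in the knockdown arm than in the scrambled arm, as did 62.8% of all genes tested. The difference had an unadjusted p under 0.05 for 10 of 16, and for 779 of all 15915 genes tested. None of the 16 passed over all genes. The 7 calls became 4 without day 2 library 1 and 3 without day 2 library 2. Bop1 lost its call without the first of these and Nop58 without the other.

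Genes of cholesterol synthesis and uptake rose in part. Of 24 genes 22 were in the tables and 21 were tested, of which 10 rose and none fell, with a median change of 0.77 (log2). Hsd17b7, a ketoreductase of a late step, had 39.1 and 55.5 RPM on day 2, against 10.4 and 12.9 RPM on day 0 (log2 change 2.00 ± 0.22, adjusted p = 0.0011). Dhcr7, the last enzyme of the pathway, had 65.6 and 64.0 RPM on day 2, against 23.6 and 22.5 RPM on day 0 (log2 change 1.495 ± 0.15). Acat2, which joins acetyl-CoA units, rose by 0.77 ± 0.13 (log2, SE). The regulator Insig1 had 24.8 and 29.6 RPM on day 2 and 23.6 and 31.1 RPM on day 0, with overlapping libraries. CCAAT was in 11 of 13 promoters of the list that were matched (84.6%), and in 39.5% of all. As said above, lists that did not rise as a group had similar shares, such as 83.3% of endoplasmic reticulum genes. The sterol element TCACNCC, searched on both strands, was in 2 of 13 (15.4%) and in 16.4% of all. The promoter of Hsd17b7, the member with the largest change, lies at chr1:169969156-169969455 on the minus strand, with CCAAT in capitals on either strand.
Hsd17b7: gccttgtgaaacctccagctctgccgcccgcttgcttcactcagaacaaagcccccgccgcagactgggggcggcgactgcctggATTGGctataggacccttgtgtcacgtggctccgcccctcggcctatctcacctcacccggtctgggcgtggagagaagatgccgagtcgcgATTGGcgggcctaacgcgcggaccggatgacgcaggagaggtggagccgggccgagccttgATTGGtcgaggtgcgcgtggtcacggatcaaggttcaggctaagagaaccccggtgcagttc
The 10 calls became 4 without day 2 library 2 and 3 with all 20 libraries, where Acat2 was among those lost.

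Genes of fatty acid and triglyceride synthesis rose more often than they fell. Of 18 genes 17 were tested, 9 rose and 2 fell, with a median change of 0.65 (log2). Scd1, the stearoyl-CoA desaturase, had 307 and 296 RPM on day 2, against 107 and 95.0 RPM on day 0 (log2 change 1.57 ± 0.20, adjusted p = 0.00168). In scrambled cells Scd1 had 686 and 864 RPM on day 2 and 121 and 83.3 RPM on day 0. Fasn, the fatty acid synthase, had 466 and 572 RPM on day 2, against 124 and 240.5 RPM on day 0, with unequal day 0 libraries. Dgat2, which completes triglycerides, had 12.4 and 14.2 RPM on day 2, against 2.14 and 2.87 RPM on day 0 (log2 change 2.40 ± 0.44). Gpam, which starts glycerolipid synthesis, and Scd2 rose by 0.81 ± 0.14 and 0.74 ± 0.13 (log2, SE). Fads1 and Fads2, desaturases of polyunsaturated fatty acids, fell by 0.71 and 0.68 on the log2 scale. The 9 increases became 0 with all 20 libraries, 4 without day 2 library 1 and 5 without day 2 library 2, and Scd2 lost its call in each of these. Scd1, Gpam and Dgat2 lost theirs with all 20 libraries.

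Central carbon metabolism rose at selected enzymes. Of 19 genes of the TCA cycle and fatty acid oxidation, all tested, 8 rose and none fell, with a median change of 0.42 (log2). Pcx, pyruvate carboxylase, which feeds the TCA cycle and lipogenesis, had 562 and 565 RPM on day 2, against 37.3 and 42.8 RPM on day 0 (log2 change 3.82 ± 0.16, adjusted p = 3.98e-05). The next largest was Acadm, an oxidation enzyme of medium-chain fatty acids, at 1.15 ± 0.17 (log2, SE). Cpt2, which imports fatty acids into mitochondria, and Pdha1 of pyruvate dehydrogenase, which overlaps Map3k15, rose by 0.98 ± 0.14 and 0.93 ± 0.13. Of 16 glycolysis genes tested 10 rose and 1 fell, with a median change of 0.68. Ldha, lactate dehydrogenase, had 661 and 774 RPM on day 2, against 403 and 297 RPM on day 0, and Pfkl, a phosphofructokinase, had 161 and 189 RPM on day 2, against 84.0 and 78.2 RPM on day 0 (log2 change 1.11 ± 0.13). The hexokinase genes moved apart, Hk2 rising by 1.55 ± 0.37 and Hk1 falling by 0.41 on the log2 scale. Gapdh and Pgk1, which have processed pseudogenes that may share reads, rose by 0.93 ± 0.16 and 1.04 ± 0.19. Of 18 oxidative phosphorylation genes 1 rose and none fell, a share below the 9.24% called higher over all genes tested. The median change of that list was 0.32. The gene that rose was Cycs, the electron carrier cytochrome c. It had 87.8 and 96.6 RPM on day 2, against 43.7 and 41.5 RPM on day 0.

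With all 20 libraries in the fit, the counts of increases were 1 for the TCA cycle and fatty acid oxidation, 0 for glycolysis and 0 for oxidative phosphorylation, and of these genes Pcx alone kept its call. Without day 2 library 2 they were 4, 1 and 1. Gapdh, Pgk1 and Ldha lost their calls without that library, and Ldha also without day 0 library 2. The glycolysis count was 5 without each other library of the arm, that of the TCA cycle 4 or 5, and that of oxidative phosphorylation 2 without day 0 library 1.

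Contractile genes and targets of serum response factor fell or did not pass. Of 18 genes 17 were tested, 9 fell and none rose, with a median change of -0.50 (log2). Acta2, smooth muscle actin, had 28.0 and 27.2 RPM on day 2, against 132 and 251 RPM on day 0 (log2 change -2.72 ± 0.26, adjusted p = 0.000633). Tpm1, a tropomyosin that stabilises actin filaments, had 129 and 118 RPM on day 2, against 488 and 572 RPM on day 0 (log2 change -2.09 ± 0.14, adjusted p = 0.000152). Myl9, a myosin light chain, had 2.06 and 1.79 RPM on day 2, against 15.4 and 24.8 RPM on day 0, and Actg2, a closely similar smooth muscle actin that may share reads with Acta2, fell by 3.08 on the log2 scale (SE 0.28). The general cytoskeletal genes Actb, Flna and Myh9 did not pass. Srf itself was at 41.4 and 43.7 RPM on day 2 and 42.0 and 47.3 RPM on day 0. Day 0 library 2 was above day 0 library 1 in 15 of 17 genes, with a median ratio of 1.47, and the count was 6 to 8 when any 1 library was left out.

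Matricellular proteins, which tune the contact of cells with their matrix, fell in 6 of 13 tested and rose in 1, with a median change of -1.28 (log2). Thbs2, a thrombospondin, had 266 and 271 RPM on day 2, against 859.7 and 828 RPM on day 0 (log2 change -1.65 ± 0.16, adjusted p = 0.000691). Scrambled cells had 96.8 and 93.3 RPM on day 2 and 792 and 1083 RPM on day 0. Its difference between the arms was 1.62 (log2, unadjusted p = 0.000101, adjusted p = 0.311). Spp1, which encodes osteopontin, had 41.2 and 32.4 RPM on day 2, against 344 and 139 RPM on day 0 (log2 change -2.59 ± 0.44). Nov and Wisp1, of the CCN family, fell by 3.55 and 1.42 on the log2 scale, the second losing its call without day 2 library 2. The 6 decreases became 4 without day 0 library 2 or without day 2 library 2. Cyr61, of the same family, was the member that rose, with 64.1 and 36.4 RPM on day 2, against 23.8 and 29.3 RPM on day 0 (log2 change 0.87 ± 0.25, adjusted p = 0.0462). That call was lost without either day 0 library of the arm and without day 2 library 1. It was also lost without scrambled day 0 library 1 and without either scrambled day 2 library. Scaling by total reads, a stricter filter (at least 50) and a fit of the 4 libraries of the arm alone lost it too.

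Of 14 interstitial collagen and crosslinking genes 2 rose and 2 fell, a share near the 9.24% higher and 11.1% lower over all genes tested, with a median change of -0.12 (log2). Col6a1 and Col6a2, chains of collagen VI, rose by 0.85 ± 0.18 and 0.95 ± 0.18 (log2, SE). Col8a1, a short-chain collagen, had 1.23 and 2.36 RPM on day 2, against 19.5 and 26.2 RPM on day 0 (log2 change -3.72 ± 0.34, adjusted p = 0.000547). Col1a2 of collagen I had 6492 and 4844 RPM on day 2, against 10560 and 14010 RPM on day 0 (log2 change -1.12 ± 0.30, adjusted p = 0.035). Its partner chain Col1a1 had 3710 and 3159 RPM on day 2 and 4659 and 9318 RPM on day 0, with day 0 library 2 far above library 1, and did not pass (adjusted p = 0.189). Col1a2 lost its call when any 1 of the 4 knockdown libraries was left out, and without either scrambled day 2 library. Col6a2 lost it without day 2 library 2, and Col6a1 without day 0 library 2 or either day 2 library.

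In the basement membrane 4 of 15 tested rose and 2 fell, with a median change of 0.79 (log2). Col4a1 and Col4a2, the chains of the common collagen IV network, are neighbouring genes read from a shared promoter region. Col4a1 had 9611 and 9861 RPM on day 2, against 2169 and 2151 RPM on day 0 (log2 change 2.17 ± 0.19, adjusted p = 0.000438). Col4a2 had 5836 and 6313 RPM on day 2, against 1194 and 1417 RPM on day 0 (log2 change 2.22 ± 0.25, adjusted p = 0.00112). Col4a5, of another collagen IV network, went the other way, with 187 and 110.4 RPM on day 2, against 679 and 616 RPM on day 0 (log2 change -2.17 ± 0.31). Col4a6 fell as well, at under 1 RPM in every library. The laminin chain Lamc1 and nidogen Nid2 rose by 1.16 ± 0.33 and 1.56 ± 0.45. The 4 increases became 2 without day 0 library 1, without either day 2 library or without either scrambled day 2 library, 6 without day 0 library 2, and 8 and 7 without scrambled day 0 libraries 1 and 2. Col4a1 and Col4a2 kept their calls under each alternative run, and Col4a6 lost it without day 0 library 2 or either day 2 library.

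Matrix proteases and their inhibitors fell more often than they rose. All 18 were tested, 7 fell and 4 rose, with a median change of -1.15 (log2). Besides Timp3 and Mmp9, the membrane protease Mmp14 had 470.5 and 514 RPM on day 2, against 1396 and 1132 RPM on day 0 (log2 change -1.35 ± 0.15). Mmp11 and the plasminogen activators Plat and Plau fell by 1.90, 1.30 and 2.56 on the log2 scale. Timp2, an inhibitor, had 765 and 785 RPM on day 2, against 1404 and 1360 RPM on day 0. Adamts1, a protease of proteoglycans, had 1659 and 1368 RPM on day 2, against 432 and 565 RPM on day 0 (log2 change 1.61 ± 0.29). Mmp3, the protease stromelysin, had 1.95 and 5.59 RPM on day 2 and 8.95 and 16.5 RPM on day 0 in knockdown cells and did not pass there, against 0.918 and 1.94 RPM on day 2 and 16.9 and 53.5 RPM on day 0 in scrambled cells. Of the 18 genes 8 had an unadjusted p under 0.05 for the difference between the arms, as did 779 of all 15915 genes tested. None of the 18 passed over all genes. The 4 increases became 2 without day 0 library 2 or without either day 2 library.

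Interferon-response genes fell or did not pass, and their day 0 levels were unequal. Of 26 genes 25 were tested, 12 fell and none rose, with a median change of -1.64 (log2). The list summed to 441 and 657 RPM on day 2, against 984 and 2416 RPM on day 0. Day 0 library 2 had the highest level of the 4 libraries for all 25 genes, with a median ratio of 2.55 to day 0 library 1, against 0.997 over all genes tested. Bst2, which tethers viruses to the cell surface, had 27.6 and 43.0 RPM on day 2, against 105 and 216 RPM on day 0 (log2 change -2.12 ± 0.39, adjusted p = 0.00824). Ifit2, which binds viral RNA, had 6 and 7.52 RPM on day 2, against 24.2 and 57.7 RPM on day 0 (log2 change -2.48 ± 0.44). Its relative Ifit1 had 17.1 and 26.1 RPM on day 2, against 55.7 and 192 RPM on day 0 (log2 change -2.28 ± 0.62, adjusted p = 0.037), and reads of the Ifit family may be shared. Dhx58, a regulator of RNA sensing, and the transcription factors Irf7, Irf9 and Stat2 fell by 1.64, 1.87, 1.17 and 1.21 on the log2 scale. Mx1, an antiviral GTPase, had 11.4 and 15.3 RPM on day 2 and 16.5 and 69.8 RPM on day 0 and did not pass (adjusted p = 0.167).

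The median change and the number of calls moved with the library left out. Each such fit has 1 library in a group, which by itself makes a call harder to reach. Without day 0 library 2 the median change was -0.87 (log2) and 5 genes were called lower. Without day 0 library 1 it was -2.44 and 22 were called. Without day 2 library 1 none was called lower, without day 2 library 2 it was 5, and without either scrambled day 2 library 6. All 25 changes were negative, called or not. With the replicate number as a block in the fit, 23 were called lower. Ifit2, Bst2 and Dhx58 lost their calls without day 2 library 1, and Ifit3 without either day 2 library. Scrambled cells held less of these transcripts, 172 and 188 RPM in sum on day 2 and 389 and 611 RPM on day 0, and library 2 was above library 1 there in 24 of 25 genes on day 0. Their median change was -2.39. For all 25 genes both knockdown libraries of day 2 lay above both scrambled libraries of day 2, as they did for 3484 of all genes tested.

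The promoters of the called interferon-response genes with the largest decrease that hold GAAA followed, after a gap of 2 free bases, by GAAA on either strand are shown, with these letters in capitals. This run, part of the interferon-stimulated response element, was chosen after the values were seen. Ifit3 lies at chr19:34583279-34583578 and Ifit1 at chr19:34640639-34640938, both on the plus strand, and Bst2 at chr8:71537423-71537722 on the minus strand.
Ifit3: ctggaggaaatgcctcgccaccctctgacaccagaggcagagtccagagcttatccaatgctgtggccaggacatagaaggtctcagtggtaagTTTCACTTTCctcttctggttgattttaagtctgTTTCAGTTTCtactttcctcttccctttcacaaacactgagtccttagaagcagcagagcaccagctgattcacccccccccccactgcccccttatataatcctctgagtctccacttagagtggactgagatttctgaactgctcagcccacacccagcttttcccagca
Ifit1: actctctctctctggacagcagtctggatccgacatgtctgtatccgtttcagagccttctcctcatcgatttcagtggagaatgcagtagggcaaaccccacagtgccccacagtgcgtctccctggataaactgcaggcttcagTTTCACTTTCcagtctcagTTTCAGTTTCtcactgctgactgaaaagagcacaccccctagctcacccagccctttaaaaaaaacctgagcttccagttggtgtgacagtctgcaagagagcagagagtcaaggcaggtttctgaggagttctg
Bst2: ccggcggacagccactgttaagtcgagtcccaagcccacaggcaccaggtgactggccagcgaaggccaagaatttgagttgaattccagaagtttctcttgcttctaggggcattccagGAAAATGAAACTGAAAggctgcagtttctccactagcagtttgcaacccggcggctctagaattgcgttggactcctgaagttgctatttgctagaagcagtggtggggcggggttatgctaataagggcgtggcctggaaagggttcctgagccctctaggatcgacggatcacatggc
The run was in 10 of 17 promoters of the list (58.8%) and in 3.03% of all promoters matched.

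**Figure D4:**
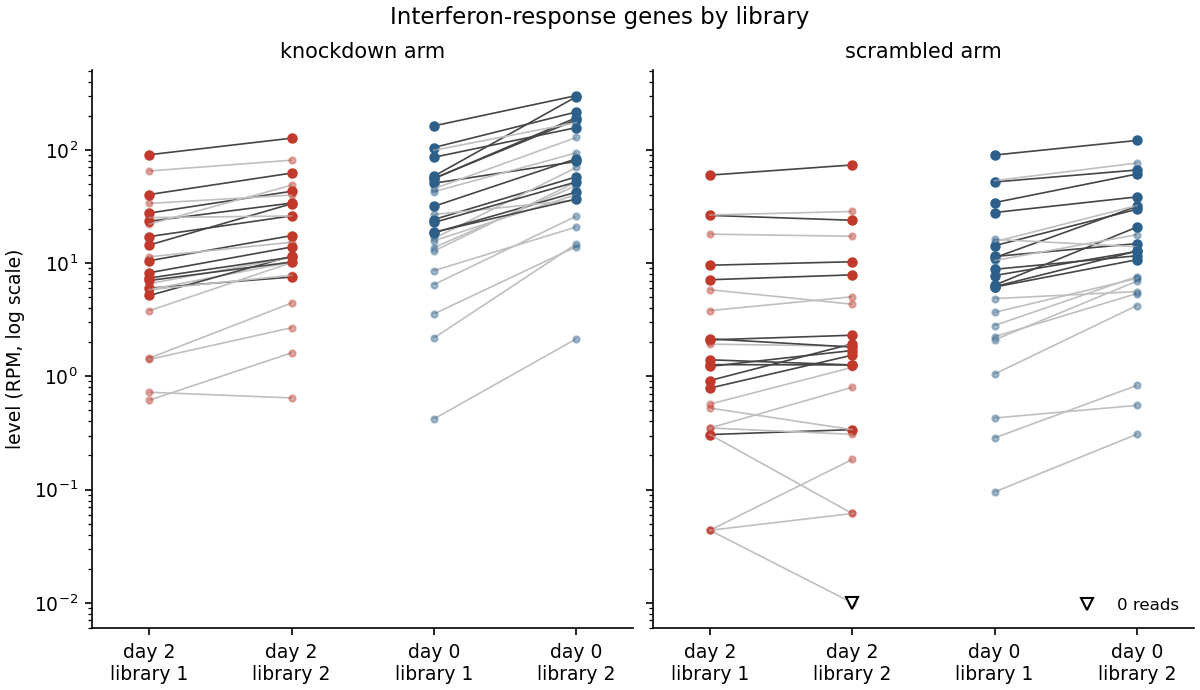
Level in RPM (log scale) of the 25 tested interferon-response genes in each library, with the knockdown arm on the left and the scrambled arm on the right. Lines join the 2 libraries of a day, day 2 is red and day 0 blue, dark lines mark the 12 genes called lower in the knockdown arm and the open triangle stands for 0 reads. In the knockdown arm day 0 library 2 holds the highest level of every gene.

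Chemokines and inflammatory genes did not move as a group. Of 24 genes 22 were tested, 7 rose and 3 fell, against 9.24% and 11.1% of all genes tested. C3, the central complement component, had 3994 and 2949 RPM on day 2, against 195 and 237 RPM on day 0 (log2 change 4.00 ± 0.27, adjusted p = 0.00016). Saa3, an acute-phase protein, had 8.5 and 12.03 RPM on day 2, against 0 reads on day 0, which is at least 193.5-fold higher against 3 reads over the day 0 libraries. Nfkbia, the inhibitor of NF-kappa-B, rose by 1.13 ± 0.18 (log2, SE). Il6 rose by 2.92 ± 0.51 at about 1 RPM on day 2. Csf1, the macrophage growth factor, had 184 and 168 RPM on day 2, against 399 and 333 RPM on day 0, and the adhesion molecule Vcam1 had 205 and 214 RPM on day 2, against 300.4 and 323 RPM on day 0. In scrambled cells 3 rose and 7 fell, and the median change was -1.03, against -0.04 in knockdown cells. Ccl2, a monocyte attractant, had 18.9 and 35.8 RPM on day 2 and 30.9 and 53.7 RPM on day 0 in knockdown cells, against 1.4 and 2.4 RPM on day 2 and 8.38 and 13.2 RPM on day 0 in scrambled cells. The difference between the arms had an unadjusted p under 0.05 for 7 of 22 genes, and for 779 of all 15915 genes tested. None of the 22 passed over all genes. Without day 2 library 2 the counts in knockdown cells were 4 higher and 0 lower.

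Genes of the Wnt pathway, in which Tcf7l2 acts, were mostly too low to test. Of 24 genes 11 were tested, 3 rose and 2 fell, against 9.24% and 11.1% of all genes tested. Lef1, a relative of Tcf7l2, had 19.9 and 16.2 RPM on day 2, against 6.58 and 6.16 RPM on day 0 (log2 change 1.496 ± 0.17, adjusted p = 0.00122), though an antisense gene overlaps it. The R-spondin receptors Lgr4 and Lgr6 rose by 1.01 ± 0.14 and 2.35 ± 0.43 (log2, SE). Sfrp2, a secreted Wnt binder, had 6.4 and 4.26 RPM on day 2, against 30.6 and 25.2 RPM on day 0 (log2 change -2.40 ± 0.23, adjusted p = 0.000681). Dkk3 fell too, by 2.27 on the log2 scale, and the 2 decreases became 1 without day 0 library 2 or without either day 2 library. The median change of the list was -0.04. Axin2, a feedback gene often used as a readout of beta-catenin, had at most 0.231 RPM in any knockdown library and was not tested, and Ctnnb1, beta-catenin itself, was at 440.2 and 465 RPM on day 2 and 450.5 and 481 RPM on day 0. The Tcf letters CTTTGAT were in 2.4% of all promoters matched and in 0 of 7 of this list.

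Of 19 tested genes (21 listed) of the TGF-beta and BMP pathway 4 rose and 4 fell. Over all genes tested 9.24% were called higher and 11.1% lower. The receptor Tgfbr2 had 618 and 626 RPM on day 2, against 160 and 163 RPM on day 0 (log2 change 1.95 ± 0.13, adjusted p = 0.000152), and the ligand Tgfb3 had 23.1 and 17.8 RPM on day 2, against 67.6 and 71.6 RPM on day 0 (log2 change -1.78 ± 0.15). Bambi, a decoy receptor, rose by 2.19 ± 0.34 and the matrix target Tgfbi fell by 1.17 on the log2 scale. Without day 2 library 1 the 4 decreases became 2. The median change of the list was -0.15.

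On the insulin-like growth factor axis 4 of 15 tested rose and none fell, against 9.24% and 11.1% of all genes tested. Igfbp4, a binding protein that restrains the ligand, had 1452 and 1460 RPM on day 2, against 194 and 255 RPM on day 0 (log2 change 2.71 ± 0.39, adjusted p = 0.00285). Igfbp5 had 32.1 and 16.4 RPM on day 2, against 1.61 and 2.27 RPM on day 0, a call lost without day 0 library 2. Irs2, an adaptor of the insulin receptor, rose by 1.59 ± 0.25 (log2, SE), whereas Irs1 was at 34.9 and 28.3 RPM on day 2 and 46.3 and 74.6 RPM on day 0 and did not pass. The median change of the list was 0.48, and Igfbp6, another binding protein, lost its call without either day 0 library or without day 2 library 2.

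Clock genes changed in a divided way. Of 15 tested, 2 rose and 5 fell, against 9.24% and 11.1% of all genes tested, with a median change of -0.50 (log2). The period genes Per1 and Per2 rose by 2.10 ± 0.13 and 1.76 ± 0.32 (log2, SE), and the third, Per3, fell to 4.59 and 5.55 RPM on day 2, against 24.5 and 28.2 RPM on day 0. Dbp, an output factor of the clock, had 1.12 and 2.11 RPM on day 2, against 19.3 and 23.1 RPM on day 0 (log2 change -3.77 ± 0.40, adjusted p = 0.000892). Its relative Tef and the repressors Nr1d2 and Nr1d1 fell by 1.64, 2.21 and 1.84 on the log2 scale. The activators Clock and Arntl did not pass. Clock was at 77.8 and 78.1 RPM on day 2 and 62.7 and 59.2 RPM on day 0, and Arntl at 21.3 and 22.7 RPM on day 2 and 21.6 and 15.1 RPM on day 0. These counts were the same or 1 apart when any library was left out. The hour of sampling is not given.

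Set beside the scrambled arm over the same days, the changes of the knockdown arm were alike in direction and smaller in many genes. In the scrambled arm 2433 genes were called higher and 2493 lower, 15.3% and 15.7% of the genes tested and 31% together. Of the 3236 genes called in knockdown cells, 2821 were called in the same direction in scrambled cells (87.2% of the knockdown calls and 57.3% of the 4926 scrambled calls), and 2 in the opposite direction. The scrambled count became 3132 without scrambled day 0 library 2 and 2246 without scrambled day 2 library 2. Over the 7957 genes above the median level the SD of the log2 changes was 0.683 in the knockdown arm and 0.793 in the scrambled arm, and Pearson's r between the arms was 0.929, given as a description across genes. The change was smaller in size in the knockdown arm for 62.8% of all genes tested. No gene passed the test of the difference between the arms in the limma fit (lowest adjusted p = 0.311), while 779 genes had an unadjusted p under 0.05. That fit did not pair same-numbered libraries, which deviated together between the arms (r = 0.77 on day 0 and 0.67 on day 2). With the replicate number as a block within each day, an alternative added after the data were seen, 1388 genes passed, 640 with a higher and 748 with a lower change in knockdown cells. Krt9 and Ppp1r1b were chosen with earlier results known. Krt9, a keratin, had 0.181 and 0.286 RPM on day 2 and 1 read in all on day 0 in knockdown cells, and 5.73 and 7.22 RPM on day 2 in scrambled cells. Ppp1r1b, a regulator of protein phosphatase, had 0.326 and 0.466 RPM on day 2 and 1 read in all on day 0 in knockdown cells, and 7.17 and 10.8 RPM on day 2 in scrambled cells. Their differences of -3.50 and -4.36 (log2) had unadjusted p of 0.0097 and 0.00407 and adjusted p of 0.782 and 0.743.

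**Figure D5:**
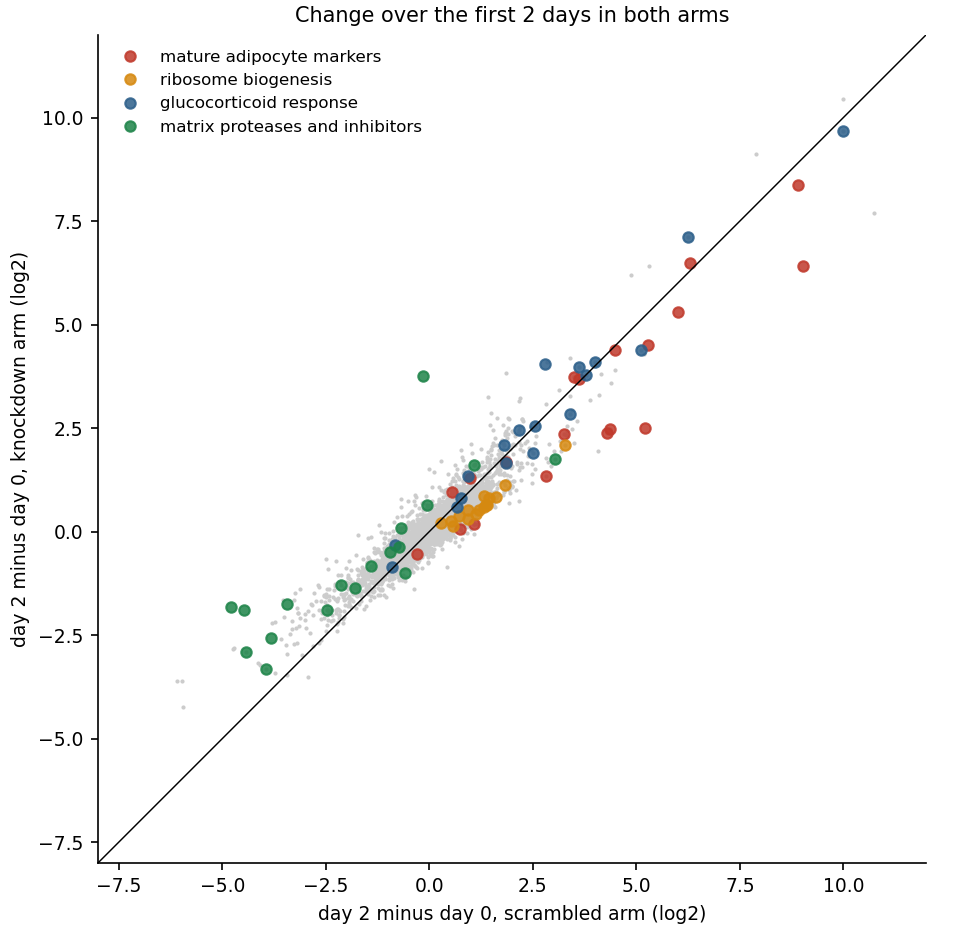
Change from day 0 to day 2 (day 2 minus day 0, log2) in the knockdown arm (vertical axis) against the scrambled arm (horizontal axis). Grey points are the 7957 genes above the median level, coloured points the tested members of 4 gene lists, and the line marks equal change in both arms. Ribosome biogenesis genes lie below the line (16 of 16 smaller in the knockdown arm), while glucocorticoid-response genes lie around it (medians 2.51 in knockdown and 2.53 in scrambled cells).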

How the data were processed

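RNA was measured in 20 libraries, 2 for each of 2 hairpins and 5 days. Per the submitters' processing notes, reads were handled with TopHat2 2.0.13, Bowtie2 2.2.3.0, SAMtools and DESeq2 1.10.1. Which counter and annotation were used is not given in the sources used here. Each day's table held deposited log2 values from a variance-stabilising transform by the authors, with each day normalised on its own. The deposited mean per gene, unit signal, is the authors' normalised mean over a table. The transform was inverted exactly, which returned whole reads within 0.02 reads for values up to 100 reads, and the 8 libraries of days 2 and 0 were rescaled together by the median of ratios. Genes with a mean normalised value of at least 10 in either table were kept. The recovered reads were fitted with limma 3.58.1 (voom, robust, R 4.3.3, statmod 1.5.0) as 4 groups of 2. Benjamini-Hochberg adjustment ran over 15915 genes, with a threshold of 0.05. The result thus depends on the recovery of the reads from transformed values, and no separate count test was run. The totals of the 8 libraries were 20153362 to 33973608 reads, and the 2 libraries of a group differed by more than sampling noise (chi-square per degree of freedom 24.6 to 71.8). Counting intervals and the floor of 3 reads cover counting error only.

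The members and gene lists were chosen with earlier results of these data known. Named genes were, in each direction, the 12 called genes above the median level with non-overlapping days that changed most, then from every list the called members lowest in adjusted p, at most 4, and lastly 10 genes set by name. Other list members named in the text were chosen after their values were seen. A few list members are counted in their lists but not reported here by name. Alternatives were other scalings, filters, sets of libraries, limma trend, a fit without robust variance, the replicate number as a block, a 2-fold minimum and leaving out each library. The fitting step was tested on simulated data. Promoters came from RefSeq (GRCm38.p6), and exon overlaps from the GENCODE vM21 annotation; no coordinates of the authors' build were used.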

Additional observations from a re-analysis of the deposited data

How the results depend on the processing

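The count of 3236 genes called in the knockdown arm became 5328 with the replicate number as a block and 1717 with a 2-fold minimum, and ranged over 1477 to 3255 when 1 library was left out. The scrambled count of 4926 became 2468 with a 2-fold minimum and ranged over 2246 to 5167 when 1 library was left out. The difference between the arms had 0 calls in the fit reported and in each alternative chosen at the outset, with 385 to 1530 genes at an unadjusted p under 0.05, and 1388 calls with the replicate block within each day. The cause of these shifts was not tested. With the block the scrambled count rose to 6914, against 4926 without it. In the knockdown arm the block gave 22 mitosis genes called higher with a median change of 1.26 (log2), against 6 with a median of 1.25 without it, 14 DNA replication genes called higher, against 5, and 23 interferon-response genes called lower, against 12. The labels tie these libraries by a number alone. Deviations of same-numbered libraries had r = 0.77 between the arms on day 0, 0.67 on day 2 and 0.28 between days of the knockdown arm. The fit reported has no term for this shared part, which stays in the spread of its test of the difference between the arms. Of 129 named genes tested, none of those called in the fit reported changed direction. Of the same genes 23 lost their call with all 20 libraries, 3 with the arm alone and 2 with limma trend. Cebpb became called with the block. At 2 libraries a group, genes near the threshold and genes with few reads on day 0 are the least certain.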

Other observations

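Chaperones of the endoplasmic reticulum and genes of its stress response did not move as a group. Of 18 tested, 1 rose and 3 fell, against 9.24% and 11.1% of all genes tested, with a median change of 0.15 (log2). Xbp1, a transcription factor of the unfolded protein response, had 128 and 186 RPM on day 2, against 58.6 and 56.7 RPM on day 0. Its called log2 change was 1.42. Ddit3, which encodes the stress factor CHOP, had 29.4 and 54.7 RPM on day 2, against 129 and 103 RPM on day 0, and its exons overlap those of Mars. Atf3 and Trib3, other stress-induced genes, fell by 1.79 and 1.54 on the log2 scale. None of these 3 decreases was called with all 20 libraries, and the count was 1 without day 0 library 2 and 5 without day 2 library 2. Day 2 library 2 was above day 2 library 1 in all 18 genes, with a median ratio of 1.53. The part of that gap in the result was not tested.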
